A study of Mus musculus with 8 samples.

Results

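Open chromatin was compared between activated CD4 T cells lacking Tet1 and Tet3 that received IL-2 and the same kind of cells that did not. The comparison took the 2 libraries labelled Tet1/3 cDKO TGFb+IL2 and the 2 labelled Tet1/3 cDKO TGFb only, 4 of the 8 libraries of the series. The other 4 came from control cells, 2 with TGF-β and IL-2 and 2 with TGF-β only, and share no library with this comparison. The assay was ATAC-seq, in which a transposase cuts accessible DNA and inserts sequencing adapters. Naive CD4 T cells of mouse spleen were sorted and activated with antibodies to CD3 and CD28. All groups received 20 ng/mL TGF-β, the plus IL-2 groups also received 100 U of IL-2, and 90000 cells per sample were processed after 48 h. cDKO stands for a conditional double knockout of Tet1 and Tet3. The labels name neither the Cre driver nor the age and sex of the mice, nor which animals each library came from. The design text calls the replicates biological, so any p-value measures only the spread between libraries.

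IL-2 binds a receptor built from Il2ra, Il2rb and Il2rg, whose bound kinases Jak1 and Jak3 phosphorylate STAT5. STAT5 then enters the nucleus and binds DNA near target genes such as Cish, Socs2, Bcl2 and Il2ra itself. In T cells this pathway drives growth and survival and is needed for regulatory T cells, which are also induced by TGF-β and depend on Foxp3. Tet1 and Tet3 oxidise methylated cytosine, a first step towards removal of DNA methylation, and their loss can leave regulatory DNA methylated.

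Each library was deposited as 1 peak list. In such bulk samples, fewer cells of a type and less accessibility per cell cannot be told apart. The lists held 96752 and 115250 peaks in cDKO cells with IL-2, against 96764 and 108842 without IL-2 (exact two-sided permutation test, p = 1). With 2 libraries against 2 the smallest p this test can give is 0.333, so no single region could be called significant and no p-value is given for regions. Every list was reduced to its 65811 strongest peaks, the length of the shortest of the 8 lists. Peaks were ranked by the authors' −log10 p-value, rank 1 being the strongest. Overlapping peaks were merged into 175276 regions (build GRCm38/mm10), of which 80991 were listed in at least 1 of the 4 cDKO libraries and 49399 in all 4. The files carry no read depth, so a region missing from a list was not detectable among that library's strongest peaks and was not shown to be closed.

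A region was called higher with IL-2 when both libraries with IL-2 listed it and neither library without IL-2 did, and lower in the reverse case. A region listed in all 4 libraries was called ranked higher, meaning nearer the top of the lists, when the nearest ranks of the groups lay at least 10% of the list apart (6582 ranks). By these rules 2672 regions (3.3%) were higher and 2820 (3.48%) lower, 2230 (4.51%) ranked higher and 2696 (5.46%) ranked lower. These percentages are the background against which gene lists are read below. The Jaccard index, the shared fraction of regions, was 0.745 to 0.749 between cDKO libraries with and without IL-2. It was 0.780 between the 2 cDKO libraries with IL-2 and 0.796 between the 2 without, so replicates were more alike than libraries of different groups by a small margin. In regions listed in all 4 libraries, the median rank difference between the 2 replicates was 6.08% of the list with IL-2 and 5.37% without. The median size of the shift with IL-2, from mean ranks, was 5.27% of the list.

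At Tet1, 8 and 9 regions were listed with IL-2, against 6 and 8 without. At Tet3 there were 11 and 11, against 11 and 11. Peaks at these genes do not show whether the deleted parts are gone, so the genotype labels were not checked by them. The CD4 T cell marker list had 93 of its 138 regions in all 4 cDKO libraries, among them all 7 at Cd3e and 3 of 6 at Cd4. The B cell list had 23 of its 46 regions in all 4 libraries, against 61% of all listed regions. These included 3 of 3 at Cr2 and 7 of 13 at Ebf1, and not the 1 at Ms4a1. The CD8 and NK cell list had 46 of 68, the myeloid and dendritic cell list 42 of 73 and the erythroid list 12 of 22. Their calls were 0 higher and 1 lower for B cells, 2 and 2 for CD8 and NK cells, 4 and 2 for myeloid cells and 2 and 0 for erythroid cells. By rank the CD8 and NK cell list had 2 of 46 regions ranked higher and 5 ranked lower (10.9%, against 5.46% of all regions). Whether other cells took part in any result was not tested.

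The promoters of Socs3, Il7r and Cish are shown because all 3 genes belong to cytokine signalling and because their windows hold the letters TTCNNNGAA, the spaced palindrome that STAT proteins bind. They were chosen after their values were seen. Socs3 encodes an inhibitor of cytokine signalling, Il7r the alpha chain of the receptor for IL-7, and Cish a STAT5-induced inhibitor of cytokine signalling. Each sequence is the RefSeq GRCm38.p6 window running from 250 bases before to 50 bases after a start, written in the direction of the gene, with the matching letters in capitals. The Socs3 window is chr11:117969317-117969616 (minus strand), the Il7r window chr15:9529827-9530126 (minus strand) and the Cish window chr9:107296409-107296708 (plus strand).
Socs3: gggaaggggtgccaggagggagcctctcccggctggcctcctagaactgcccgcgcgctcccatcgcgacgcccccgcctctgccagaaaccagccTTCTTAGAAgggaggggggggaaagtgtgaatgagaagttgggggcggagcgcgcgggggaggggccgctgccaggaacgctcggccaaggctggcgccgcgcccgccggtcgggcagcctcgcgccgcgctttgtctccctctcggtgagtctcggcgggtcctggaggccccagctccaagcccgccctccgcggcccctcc
Il7r: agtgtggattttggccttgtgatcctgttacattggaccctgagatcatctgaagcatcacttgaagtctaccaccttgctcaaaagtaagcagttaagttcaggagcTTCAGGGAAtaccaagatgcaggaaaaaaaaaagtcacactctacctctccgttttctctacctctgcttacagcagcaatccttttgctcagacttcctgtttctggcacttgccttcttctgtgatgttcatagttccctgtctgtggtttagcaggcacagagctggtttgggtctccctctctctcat
Cish: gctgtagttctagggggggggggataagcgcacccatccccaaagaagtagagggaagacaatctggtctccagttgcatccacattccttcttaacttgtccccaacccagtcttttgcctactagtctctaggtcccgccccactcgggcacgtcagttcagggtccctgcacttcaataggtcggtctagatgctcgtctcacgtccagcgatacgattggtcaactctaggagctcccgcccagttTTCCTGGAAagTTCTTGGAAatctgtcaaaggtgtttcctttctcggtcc

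The region over the Socs3 window (chr11:117968846-117970170) ranked 4033 and 6586 with IL-2, against 13937 and 14392 without. The region over the Il7r window (chr15:9529532-9530298) ranked 14320 and 10608 with IL-2, against 26887 and 21194 without. Both were called ranked higher, and in neither did the groups overlap. In control cells the Socs3 region ranked 12456 and 4083 with IL-2, against 15174 and 6543 without, with overlapping groups. The Il7r region ranked 12130 and 13395 there with IL-2, against 15855 and 21209 without, apart but not called. Other regions of Il7r in cDKO cells were 1 higher and 1 ranked lower. The region over the Cish window (chr9:107295389-107297012), which holds 2 copies of the letters, ranked 17471 and 22645 in cDKO cells with IL-2, against 16713 and 18783 without, and the groups overlapped. Among 96 windows of 90 genes that lay in a ranked higher region, 13 (13.5%) held TTCNNNGAA. Overlapping windows of Fbxo17 held the same copy and were counted separately. The share was 3 of 61 windows (4.92%) in ranked lower regions, 6.05% of 10339 windows in regions listed in all 4 libraries and 8.3% of all 32851 windows. In regions called by presence it was 2 of 33 windows (6.06%) for higher and 1 of 12 (8.33%) for lower regions. TGANTCA, which AP-1 factors bind, was in 7.29% of windows in ranked higher regions, 13.1% in ranked lower regions, 4.28% of those in all 4 libraries and 7.81% of all windows. Both motifs read the same on both strands. The windows also differed in base composition, with a median of 20.5 CpG in ranked higher regions, 9 in ranked lower regions and 24 in regions of all 4 libraries. A match describes letters in the window, and whether composition accounts for these shares was not tested. The 6 windows of best worst rank in regions called by presence belonged to Gm11732, Rgs7, Gm33135, Gm34816 and Prkd1, which were higher, and Gm11476, which was lower.

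Of 186 IL-2 and STAT5 regions listed in all 4 cDKO libraries, 26 (14.0%) were ranked higher with IL-2, against 4.51% of all regions. Another 11 (5.91%) were ranked lower, close to the background of 5.46%. The median shift of the list was 1.62% of list length towards the top, against −0.19% for all regions. By presence the list lay near the background, with 10 regions higher (3.6%) and 8 lower (2.88%) of 278. In control cells 9 of 184 regions (4.89%) were ranked higher, against 4.49% of all regions there. The list's median shift in control cells was 2.86% of list length towards the top, against −0.04% for all regions. All 26 regions were listed in the 4 control libraries, and in 20 the mean rank was nearer the top with IL-2 in control cells too. The same held for 1392 of the 1790 ranked higher regions of any gene in all 4 control lists (77.8%), so the list did not stand out in this. The list's share ranked higher was above that of all regions under each alternative tried. It was 8.59% against 4.76% when peaks were ranked by fold over background (11 regions) and 19.8% against 4.63% when 32905 peaks were kept (21 regions). With 1 library left out it was 17.3% to 21.4%, against 9.41% to 10.8% of all regions. The share ranked lower did not always stay close to the background. Ranking by fold gave 9 regions ranked lower (7.03%, against 5.66%) beside the 11 ranked higher. Without replicate 1 of cDKO with IL-2, 32 were ranked lower (16.7%, against 12.7%) and 41 ranked higher. With each other cDKO library left out the share ranked lower was 8.9% to 10.6%, against 10.2% to 13.0%. These alternatives were added after seeing the data.

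Negative regulators of cytokine signalling, which STAT5 induces, were among the genes ranked higher. A region 5.15 kb from Cish (chr9:107307459-107308411) ranked 21863 and 29649 with IL-2, against 64354 and 52932 without. Both libraries with IL-2 lay far above both without, by a gap of 35.4% of the list. Socs2, another inhibitor of the family, had 2 such regions. The region at its end (chr10:95415262-95417640) ranked 13251 and 16257 with IL-2, against 26654 and 28469 without. One 11.8 kb away (chr10:95371745-95372366) ranked 23161 and 9304 with IL-2, against 43622 and 52673 without. Both Socs2 regions were ranked higher with IL-2 in control cells as well. Another Socs2 region, 26.0 kb away, was lower: it was in neither list with IL-2 and ranked 50190 and 43600 without.

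Receptor genes showed mixed movement. A region inside Il2rb (chr15:78502117-78503149), the beta chain of the IL-2 receptor, ranked 16395 and 14354 with IL-2, against 26293 and 34269 without, and was also ranked higher in control cells. At Il2ra, which encodes the alpha chain, 2 regions were higher, 1 was lower, 1 ranked higher and 1 ranked lower among 18 listed. The strongest of the higher ones, 12.9 kb from the gene (chr2:11629633-11630115), ranked 17142 and 19350 with IL-2 and was in neither list without IL-2. Control libraries listed it in both states, at 13903 and 12674 with IL-2 and at 18859 and 36800 without. A region 14.4 kb away (chr2:11628237-11628630) moved the other way, with ranks of 48054 and 44769 with IL-2, against 25556 and 19311 without, and was lower in control cells too. The Il2ra promoter end (chr2:11642229-11643144) ranked 21242 and 29498 with IL-2, against 23468 and 24406 without, so the groups overlapped. Il4ra, a receptor chain for IL-4, had 2 regions ranked higher and 1 lower. Of the kinases and factors below the receptor, Jak1 had 2 regions ranked higher, 1 ranked lower and 2 lower. Stat5b had 1 ranked lower, at 43813 and 45534 with IL-2, against 26573 and 34455 without.

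Cell cycle genes that IL-2 is known to induce held the most ranked higher regions of this list. Cdk6, a kinase that acts with D-type cyclins at the start of the cell cycle, had 4 within its body among 16 listed in all 4 libraries. They lay between 111 and 137 kb from the lower-coordinate end of the gene, with no other region of all 4 libraries between them. The strongest (chr5:3460445-3461591) ranked 5386 and 4272 with IL-2, against 20814 and 20002 without. The widest gap, 28.7% of the list, was at chr5:3466157-3466598, which ranked 29118 and 24063 with IL-2, against 47983 and 52258 without. On either side of this stretch 1 region was ranked lower, and a further 1 near the other end of the gene was higher. Ccnd3, which encodes cyclin D3, had 4 regions ranked higher and none called the other way. The one at its end (chr17:47598045-47598654) ranked 18334 and 15737 with IL-2, against 38591 and 44814 without. Ccnd2, which encodes cyclin D2, had 3 regions ranked higher, 3 higher and 1 ranked lower. In control cells 0 Cdk6 regions, 0 Ccnd2 regions and 1 Ccnd3 region were ranked higher. The difference between genotypes was not tested.

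**Figure D1:**
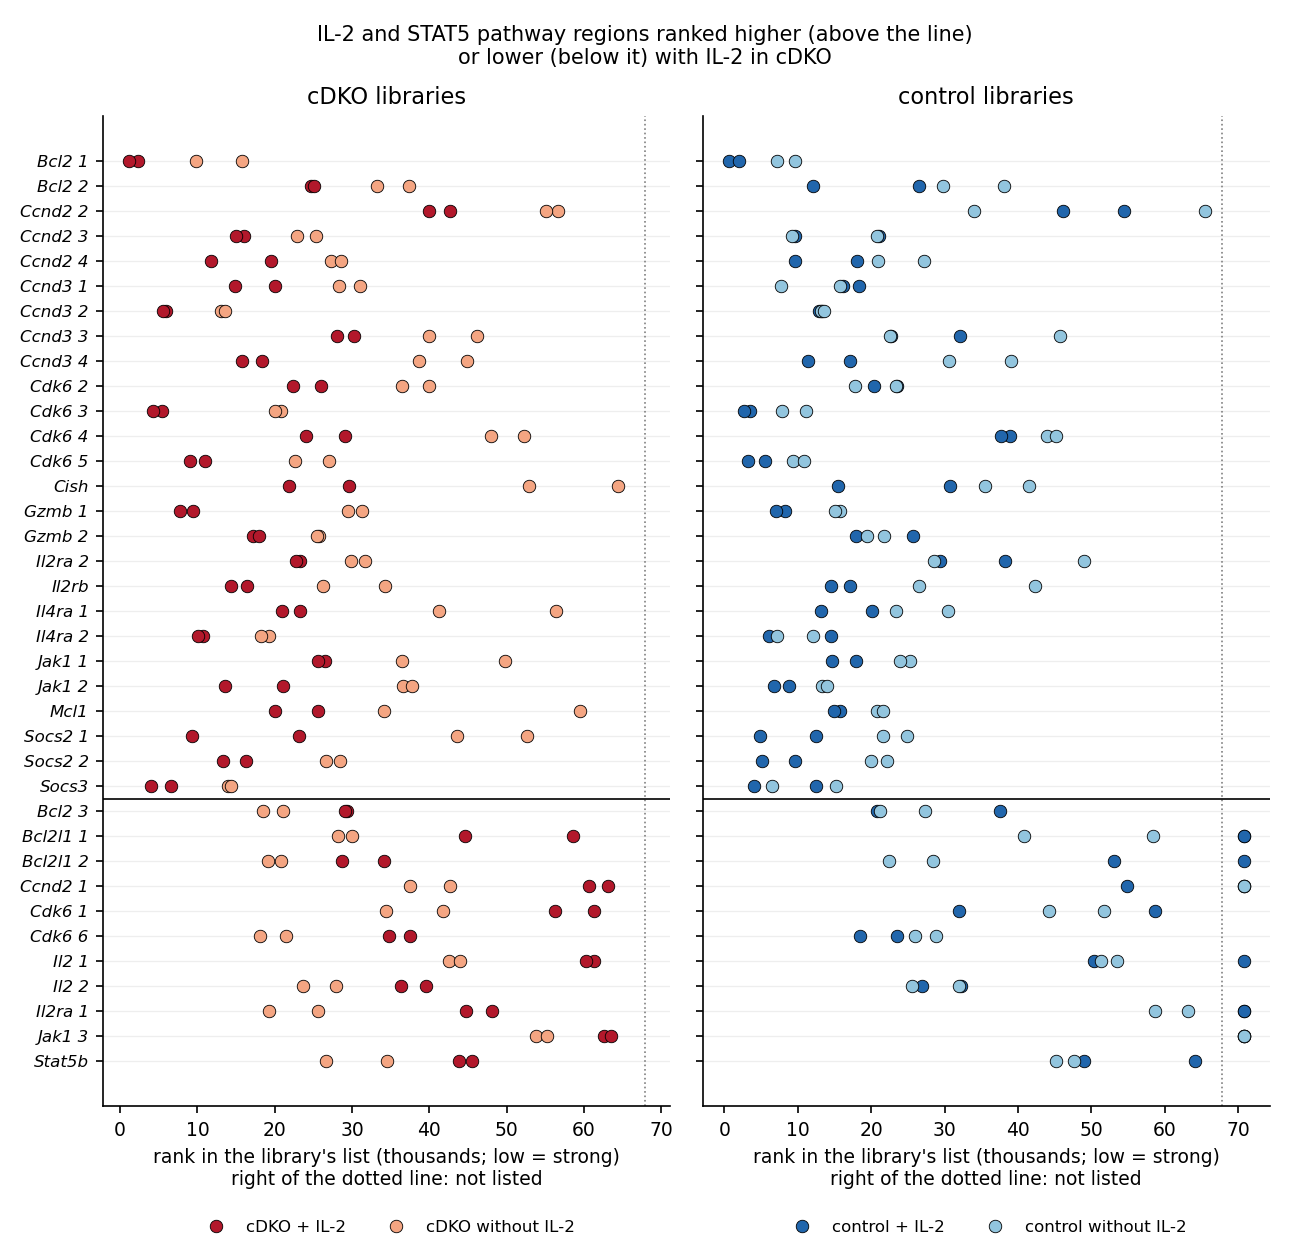
Rank of each IL-2 and STAT5 pathway region called by rank in cDKO cells, 1 row per region and 1 point per library, with cDKO libraries on the left and control libraries on the right. Low ranks are strong peaks and several regions of a gene are numbered along the chromosome; the 26 upper rows have both libraries with IL-2 left of both without in cDKO cells, and the 11 lower rows the reverse.

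Survival and effector genes had fewer calls. Bcl2, which protects cells from apoptosis, had 2 regions ranked higher, 1 ranked lower, 1 higher and 1 lower among 32. The strongest (chr1:106606900-106607379) was near the top of every list, ranking 2307 and 1157 with IL-2, against 15814 and 9795 without. In control cells it ranked 548 and 1922 with IL-2, against 7172 and 9658 without, so the groups were apart there too. A region near Mcl1, a survival gene of the same family, was ranked higher. At Bcl2l1, also of that family, 2 were ranked lower. Gzmb, which encodes the protease granzyme B, had 2 regions ranked higher, of which the one 13.8 kb away (chr14:56275735-56276462) ranked 9421 and 7728 with IL-2, against 29418 and 31262 without. Myc, a growth regulator, had no region called higher, and 1 of its 13 regions, 35 kb away, was lower.

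At Il2, the gene for the cytokine itself, the calls ran downwards, while the nearest region among the strongest peaks of cDKO cells moved up without a call. The region at the gene end (chr3:37125756-37126075) was among the strongest peaks of no cDKO library. At full length both cDKO lists without IL-2 held it, at ranks 81976 and 73205, and neither list with IL-2 did. In control cells it was called lower, in neither list with IL-2 and at ranks 38215 and 53339 without. A region 20.7 kb from the gene (chr3:37146484-37146749) ranked 61278 and 60240 with IL-2, against 42481 and 44011 without. Another 26.4 kb away (chr3:37152090-37152708) ranked 39594 and 36293 with IL-2, against 27943 and 23689 without. One 35.3 kb away was in neither list with IL-2 and ranked 58894 and 49288 without. The 4 other Il2 regions listed in cDKO cells were not called. The nearest of them, 2.48 kb from the gene (chr3:37128160-37128717), ranked 14742 and 8489 with IL-2, against 20512 and 21670 without. The groups did not overlap there, but the upward gap of 8.77% of the list was below the limit for a call. In the rest of these uncalled regions the gap was at most 0.49% of the list in either direction. Foxp3, the defining factor of regulatory T cells, had 1 region in all 4 libraries (chrX:7586226-7586968), which ranked 43843 and 50327 with IL-2, against 36422 and 45095 without, with overlapping groups. Tet1 had 2 regions higher, one at ranks 57519 and 59311 and one, at a gene end, at 64122 and 63125 with IL-2, both near the bottom of the lists, and 2 ranked lower. Tet3 had 1 higher, which ranked 38176 and 31502 with IL-2.

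Among the other lists, genes for histone deacetylases and their co-repressors stood furthest above the background for lower regions by presence. These enzymes remove acetyl groups from histones and so favour compact chromatin. Of 125 regions 16 (12.8%) were lower with IL-2, against 3.48% of all regions, and 4 (3.2%) were higher. Among 69 listed in all 4 libraries 7 (10.1%) were ranked lower and 0 ranked higher, against 5.46% and 4.51%. The absence of ranked higher regions did not hold throughout: ranking by fold gave 3 of 63 (4.76%, against 4.76% of all regions), and leaving out replicate 2 of cDKO with IL-2 gave 7 of 69 (10.1%, against 9.41%). Those ranked lower were then 5 of 63 (7.94%, against 5.66%) and 16 of 69 (23.2%, against 13.0%). These alternatives were added after seeing the data. Among them, Hdac4 had 5 lower regions, Hdac9 had 4 and Hdac7 and Ncor1 had 1 each. In control cells 4 of 130 regions of the list (3.08%) were lower, against 2.84% of all regions. With the deposited lists at full length, 10 of 227 regions (4.41%) were lower, against 2.57% of all regions, and all but 1 of the 16 held a weaker peak in at least 1 full list with IL-2.

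Hdac4 carried the largest share of these calls, with 5 of its 40 regions lower and a further 5 ranked lower. The strongest, inside the gene (chr1:91987747-91988380), was in neither list with IL-2 and ranked 23194 and 20398 without. At full length it was absent from 1 deposited list with IL-2 and at rank 100905 in the other. No control library listed it among its strongest peaks. The widest rank gap at the gene, 44.6% of the list, was at chr1:92069351-92069835, which ranked 53843 and 57060 with IL-2, against 23782 and 24500 without. Hdac9, a related class II enzyme, had 1 region (chr12:34915367-34915579) that was in no deposited cDKO list with IL-2 at any rank and ranked 40301 and 31750 without.

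**Figure D2:**
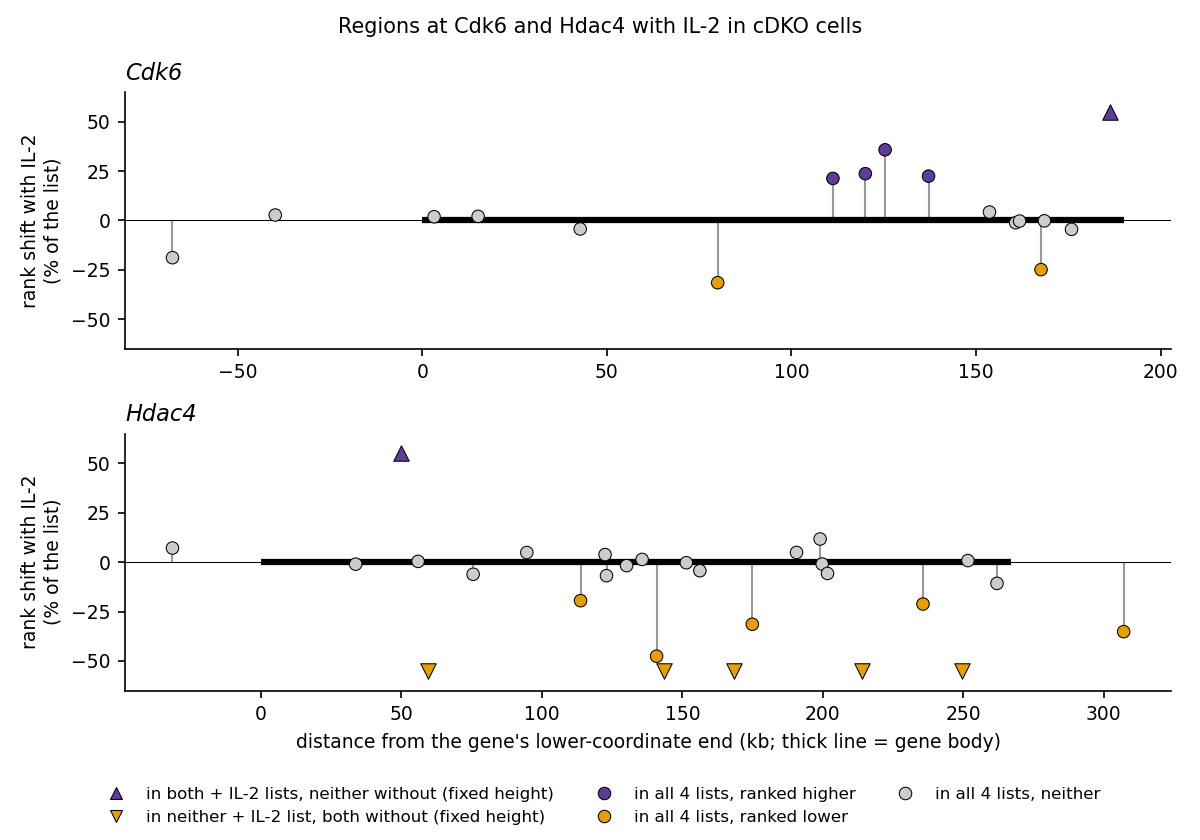
Regions listed in cDKO cells at Cdk6 (top) and Hdac4 (bottom), by distance in kb from the end of the gene body with the lower coordinate. Points give the shift in mean rank with IL-2, in percent of the list and upwards where the region is nearer the top with IL-2, for regions listed in all 4 libraries. Triangles at a fixed height mark the region called higher at each gene and the 5 called lower at Hdac4. Cdk6 has 4 neighbouring regions ranked higher, and Hdac4 has 10 regions called lower or ranked lower in or near the gene.

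T cell lineage lists moved in both directions. The Treg list, genes marking regulatory T cells, had 16 regions higher (6.11%) and 13 lower (4.96%) of 262, both above the background, and 9 ranked each way of 173. Nt5e, which encodes the surface enzyme CD73 that makes adenosine, had the strongest higher region of this list (chr9:88337481-88338015). It ranked 27384 and 19030 with IL-2 and was in no deposited cDKO list without IL-2. Izumo1r had 1 higher, at ranks 36766 and 25232. Itgb8, an integrin chain that activates latent TGF-β, had 3 higher and 1 lower. At Ctla4, an inhibitory receptor, 4 regions 20.1 to 48.6 kb from the gene were ranked higher, 2 ranked lower, 1 higher and 1 lower. The widest of these gaps, 33.9% of the list, was at chr1:60874990-60875642, which ranked 23403 and 30204 with IL-2, against 57506 and 52489 without. At Icos, a costimulatory receptor, 2 were higher and 3 lower, and Nrp1 had 2 lower, 3 ranked higher and 2 ranked lower.

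Th1 genes, which mark the interferon-producing lineage, had 7 of 81 regions (8.64%) ranked higher and 3 (3.7%) ranked lower. Of the 7, 2 were near Ifng, the gene for interferon gamma. The one 35.1 kb away (chr10:118480692-118481217) ranked 16235 and 6958 with IL-2, against 35992 and 44357 without, and was ranked higher in control cells too. A region 20.0 kb from Il12rb2, a chain of the IL-12 receptor, ranked 17708 and 12353 with IL-2, against 56251 and 32804 without, and was ranked higher in control cells as well. Hlx, Ifngr1, Ifngr2 and Il12rb1 had 1 each. At Tbx21, the gene for the Th1 factor T-bet, 4 regions within 10 kb were higher and 1 at the gene end was lower. The 4 ranked between 46744 and 65318 with IL-2, in the weaker part of the lists. By presence the list had 7 higher (5.34%) and 5 lower (3.82%) of 131, and at full length 4 and 5 of 177.

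The Tfh list, genes of follicular helper cells, had 4 regions higher (2.61%) and 8 lower (5.23%) of 153, and 2 ranked higher (2.06%) and 7 ranked lower (7.22%) of 97. The counts by presence did not keep this balance: at full length 4 were higher and 4 lower of 238 (1.68% lower, against 2.57% of all regions), and with genes limited to the body plus 10 kb 2 were higher and 1 lower of 100. Its median shift was −2.09% of the list. Bcl6, the factor that defines these cells, had 2 lower. The stronger (chr16:24021845-24022266) was in neither list with IL-2 and ranked 33290 and 42047 without. At Tox, a nuclear factor, 2 regions were ranked lower, and so were 2 at Slamf6, a surface receptor, and 1 region at each gene was also ranked lower in control cells. Btla, an inhibitory receptor, had 1 ranked lower, at 54954 and 55675 with IL-2, against 29730 and 27874 without. The Th17 list had 5 regions ranked higher (3.82%) and 10 ranked lower (7.63%) of 131, and 5 of those 10 were at Rora, which encodes a factor of that lineage. The Th2 list had 4 higher and 1 lower of 71.

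**Figure D3:**
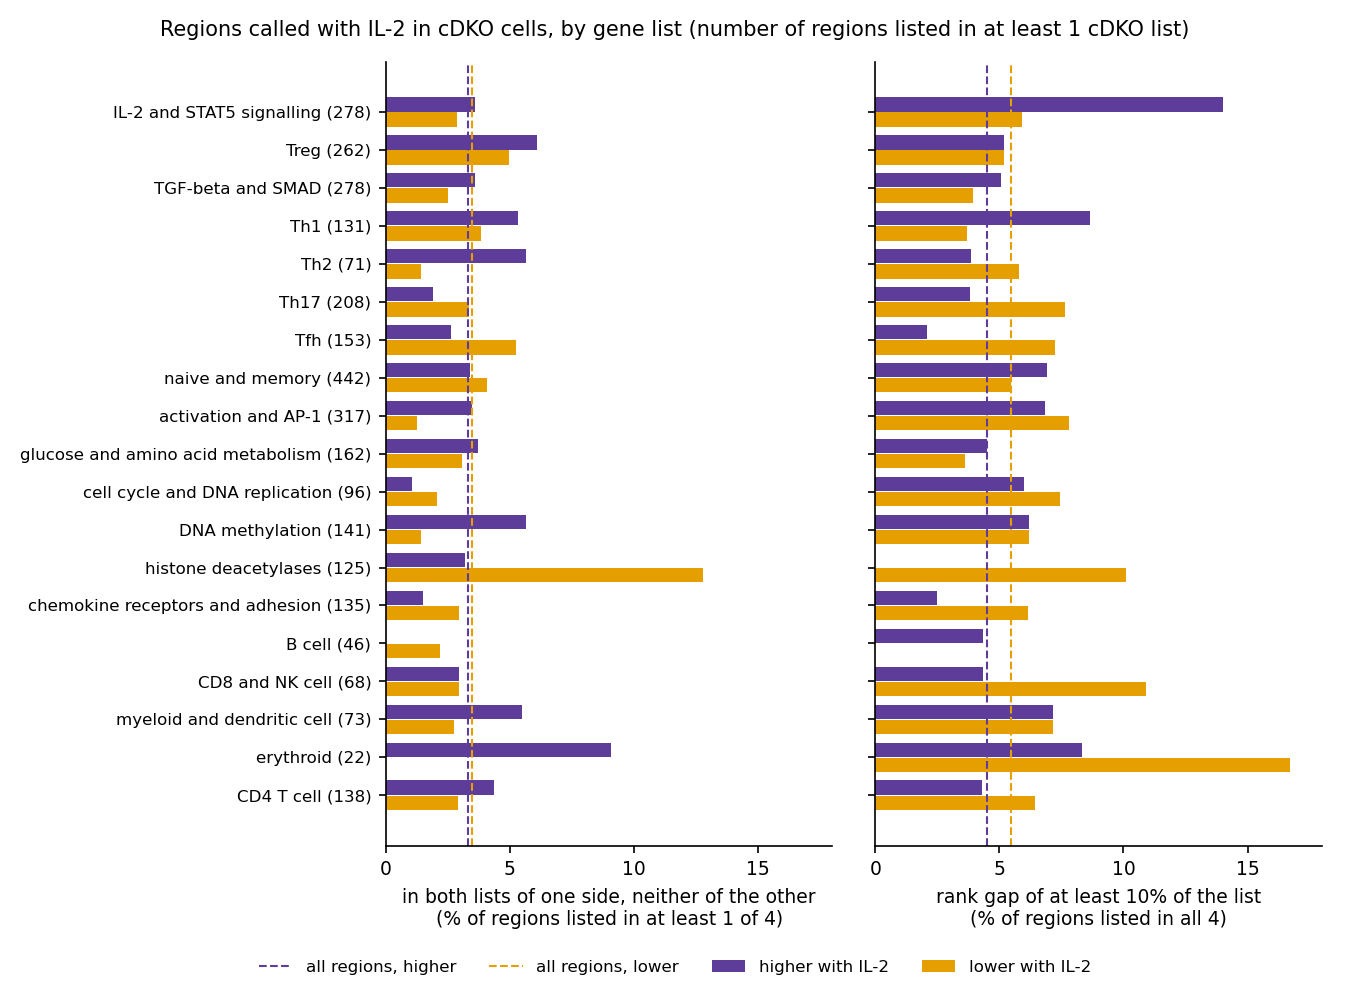
Percent of the regions of each gene list called higher or lower with IL-2 in cDKO cells, by presence (left, of regions listed in at least 1 of the 4 libraries) and by rank (right, of regions listed in all 4). Dashed lines give the same percent over all regions; the IL-2 and STAT5 list reaches 14.0% ranked higher and the histone deacetylase list 12.8% lower, while the erythroid bars rest on 22 regions or fewer.

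The list of naive and memory genes had 15 regions higher and 18 lower of 442, and 19 ranked higher (6.91%) and 15 ranked lower (5.45%) of 275. Ets1, a transcription factor of T cells, had 3 regions ranked higher, 2 ranked lower and 2 higher among 40. Of those ranked higher, the region at chr9:32722809-32723457 ranked 13884 and 12824 with IL-2, against 41435 and 42729 without, and was ranked higher in control cells too. Bach2, a repressor that keeps T cells from effector fates, had 1 higher and 5 lower, with 3 ranked higher and 1 ranked lower. At Foxp1, which maintains quiescence, 3 were higher and 7 lower. Of 317 activation and AP-1 regions 11 were higher (3.47%) and 4 lower (1.26%), while at full length 21 were higher (4.32%) and 13 lower (2.67%) of 486. In regions of all 4 libraries this list had 14 ranked higher and 16 ranked lower of 205. Cd28, the costimulatory receptor through which the cells were activated, had 4 regions ranked lower and 1 ranked higher, and the widest gap (chr1:60758179-60758619) was between ranks of 64095 and 47436 with IL-2 and of 23061 and 20391 without. The DNA methylation list had 8 higher (5.67%) and 2 lower (1.42%) of 141 and 6 ranked each way of 97. Its higher regions included 1 at Tet2 (chr3:133542150-133542386), a further enzyme that oxidises methylated cytosine, at ranks 52091 and 33139 with IL-2, which was also higher in control cells. The TGF-beta and SMAD list had 10 higher and 7 lower of 278, the metabolism list 6 and 5 of 162, the cell cycle and replication list 1 and 2 of 96, and the chemokine receptor and adhesion list 2 and 4 of 135.

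Over the whole genome, the strongest regions higher with IL-2 by both the equal-number and the full-length lists were in or near Xpo4, Cd2, Wwp1, Pik3cg and Rad52. Pik3cg encodes a catalytic subunit of phosphoinositide 3-kinase. The region 65 kb from it (chr12:32273434-32273988) ranked 19088 and 12481 with IL-2. A region in Syk, a tyrosine kinase of immune receptors (chr13:52613377-52613672), ranked 21771 and 21662, and one in Slc10a7 (chr8:78669410-78670229) ranked 21658 and 14952. Others by the same rule were in or near Cwc27, Gm9631, Slc22a3, Gask1a, Pask, Nt5e and Tnr, with 1 that had no gene within 100 kb. Of these 15 regions, 6 were also ranked higher in control cells: those at Xpo4, Cd2, Wwp1, Gm9631 and Pask and the one without a gene. Regions lower by both kinds of list were weaker. The strongest was in Fibcd1, and those that followed were in or near Hdac9, Diaph2, Pam, Stk38, Atp6v1d, Brwd1, Prmt9, Stx16, Btbd11 and Ranbp10, with 2 at Brwd1 and 2 without a gene. The one in Atp6v1d, a subunit of the vacuolar proton pump (chr12:78858084-78858306), was in neither list with IL-2, ranked 42304 and 44233 without, and was also lower in control cells.

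In regions present in all 4 libraries the gap between the groups reached 66.4% of the list. The widest gap upwards was inside Foxj3, a forkhead factor (chr4:119599604-119600104), which ranked 14737 and 5889 with IL-2, against 59756 and 58419 without. In Mkln1 (chr6:31489797-31490363) the ranks were 8930 and 6485 with IL-2, against 50655 and 64844 without. A region 3.41 kb from Nampt, an enzyme of NAD synthesis (chr12:32856369-32857179), ranked 11850 and 8252 with IL-2, against 52839 and 59034 without. In Dock8, a guanine nucleotide exchange factor of lymphocytes (chr19:25074685-25075270), they were 15612 and 10561 with IL-2, against 55270 and 54766 without. Atg10, Nhsl2, Oat and 1 region without a gene completed the 8. Of these, the one in Nhsl2 was called ranked higher in control cells. At Foxj3, Mkln1, Atg10, Nampt and Dock8 the control groups were apart in the same direction, below the limit for a call. At Oat they overlapped. In the other direction, a region 60.2 kb from Il12a, which encodes a cytokine subunit (chr3:68758604-68758968), ranked 55697 and 55101 with IL-2, against 17213 and 14012 without. In Dtnb (chr12:3766243-3766461) the ranks were 64822 and 64168 with IL-2, against 26615 and 27213 without, and no control library held the region among its 65811 strongest peaks, though 3 of the 4 deposited control lists held it further down. Actbl2, Trmt1l, Sntb2, Gm40514, Itprip and 1 region without a gene followed. Those at Actbl2, Trmt1l and Sntb2 and the one without a gene were lower in control cells.

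Several genes collected calls in 1 direction. Of 31 genes with 3 or more regions higher and none lower, Jazf1 (5 of 35 regions) and Exoc2 (5 of 34) led, followed by Ift57, Ssbp3 and Nup210 with 4 each and Fyn, Afg1l and Emsy with 3. Jazf1 encodes a zinc finger protein, and its strongest higher region (chr6:52859326-52859849) ranked 19560 and 13774 with IL-2. Jazf1 also had 5 regions ranked higher. Fyn, a Src family kinase of T cell receptor signalling, had its strongest at chr10:39493398-39493915, with ranks of 20116 and 21265. Of 39 genes with 3 or more regions lower and none higher, Znrf2 had 5 of 15, Slc16a7, Wwox, Chn2, Sesn1 and Abtb2 had 4 each and Tmem64 had 3. Sesn1 encodes a stress-induced inhibitor of growth signalling, and its strongest lower region (chr10:41899595-41899976) was in neither list with IL-2, ranked 38130 and 35333 without, and was ranked lower in control cells. Wwox also had 7 regions ranked lower and 1 ranked higher, among 52 regions within the gene or nearest to it.

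Regions called by presence lay mostly away from gene ends and in the weaker parts of the lists: the weaker of the 2 ranks had a median of 56989 for higher and 58770 for lower regions. A gene end was taken as the 1 kb on each side of where a protein-coding gene starts or stops. Gene ends held 7.9% of the higher regions (95% Wilson interval, counting error only, 6.93% to 8.98%) and 4.89% of the lower regions (4.16% to 5.75%). The share was 7.55% of all 9666 regions listed in exactly 2 of the 4 libraries and 24.8% of those listed in all 4. Among regions called by rank it was 10.8% of ranked higher and 6.08% of ranked lower ones. With 96752 peaks kept per list the higher and lower shares came closer, at 6.5% and 5.81%. The median width was 375 bp for higher and 307 bp for lower regions. Calls were spread over the chromosomes, with 2.39% to 4.12% of listed regions higher and 2.93% to 4.16% lower.

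Regions called in cDKO cells were then read in the 4 control libraries, which played no part in the calls. The Jaccard index was 0.713 between the 2 control libraries with IL-2 and 0.756 between the 2 without. Between control libraries with and without IL-2 it was 0.680 to 0.765, so replicates there were not set apart from the other group. All shares that follow are of regions among the 65811 strongest peaks of a control library. Of the regions higher with IL-2 in cDKO, 68.4% and 67.4% were listed in the control libraries with IL-2, against 53.2% and 38.8% in those without. Of the lower regions, 24.5% and 24.0% were listed in control with IL-2, against 36% and 45.8% without. In both sets the control groups did not overlap and lay in the direction seen in cDKO cells. For the 529 regions higher by both kinds of list the shares were 82.4% and 81.5% with IL-2, against 48.4% and 19.3% without. For the 260 lower by both they were 3.85% and 6.92%, against 16.2% and 22.3%. Regions listed in exactly 2 of the 4 cDKO libraries, whatever the call, gave 43.0% and 41.8%, against 43.7% and 42.4%. Among the 65811 strongest peaks of the control libraries, 14.8% of higher regions and 37.9% of lower regions were in none of the 4. In the deposited lists at full length these shares do not hold, since replicate 1 of control without IL-2 alone held 97% of those called higher and 94.3% of those called lower.

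**Figure D4:**
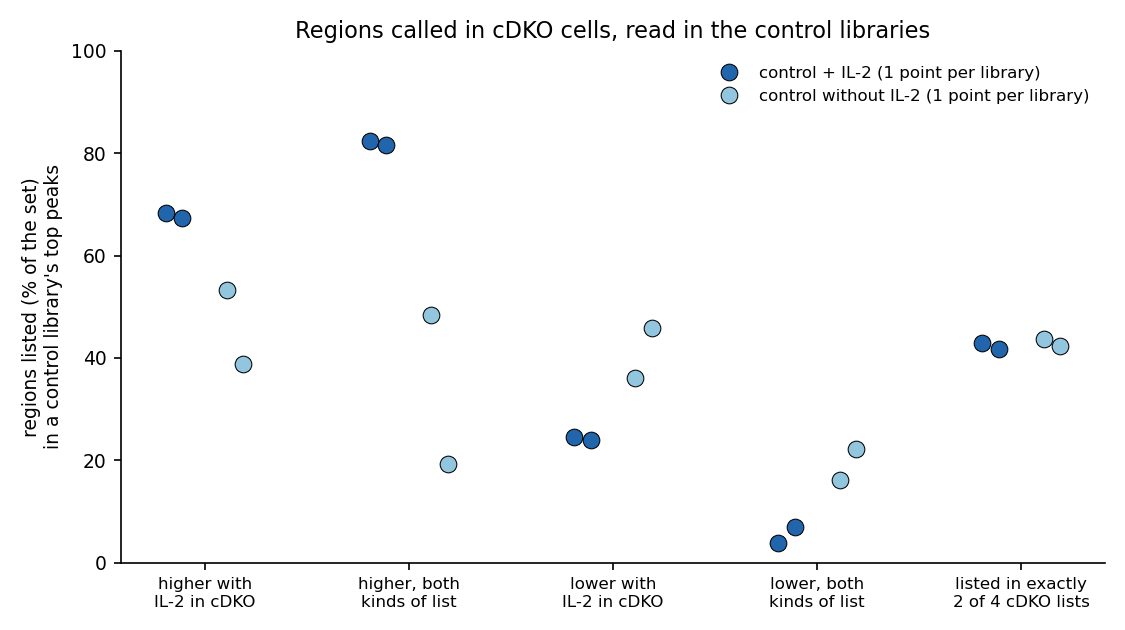
Percent of regions called in cDKO cells that each control library listed among its strongest peaks, 1 point per library, for regions higher, lower, higher or lower by both kinds of list, and listed in exactly 2 of 4 cDKO libraries. Control libraries with IL-2 lie at 68.4% and 67.4% for the higher set, above those without, and at 24.5% and 24.0% for the lower set, below those without, while the last set shows no such split.

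The same call was made in control cells for 334 of the higher regions (12.5%) and 220 of the lower (7.8%), against 2.71% and 2.84% of all regions listed in control cells. Of the ranked higher regions 364 (16.3%) were ranked higher in control cells, and of the ranked lower 318 (11.8%) ranked lower, against 4.49% and 4.66% of all. With the deposited lists at full length the first share was 1.38% and the second 10.9%. In those lists replicate 2 of control with IL-2 held 65811 peaks, the fewest of the 8. Ranked higher regions found in all 4 control lists numbered 1790, and in 48.4% of them both control libraries with IL-2 lay above both without, against 5.87% with the reverse order. Over all 46476 regions in all 4 control lists the 2 orders made up 18% and 19.2%. For the ranked lower regions 42.0% had the order seen in cDKO cells and 4.98% the reverse.

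The shift of a region in cDKO cells also went along with its shift in control cells over the whole range. Across 40694 regions listed in all 8 libraries, Pearson's r was 0.349 and Spearman's rho 0.293. These describe regions, which share libraries and are not independent replicates. In the tenth of regions with the largest upward shift in cDKO cells, by a median of 17.7% of the list, the median shift in control cells was 6.42%. In the tenth with the largest downward shift, a median of −17.3%, it was −7.97%. The quartiles in control cells reached past 0 in both, at −2.23% and 0.53%.

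**Figure D5:**
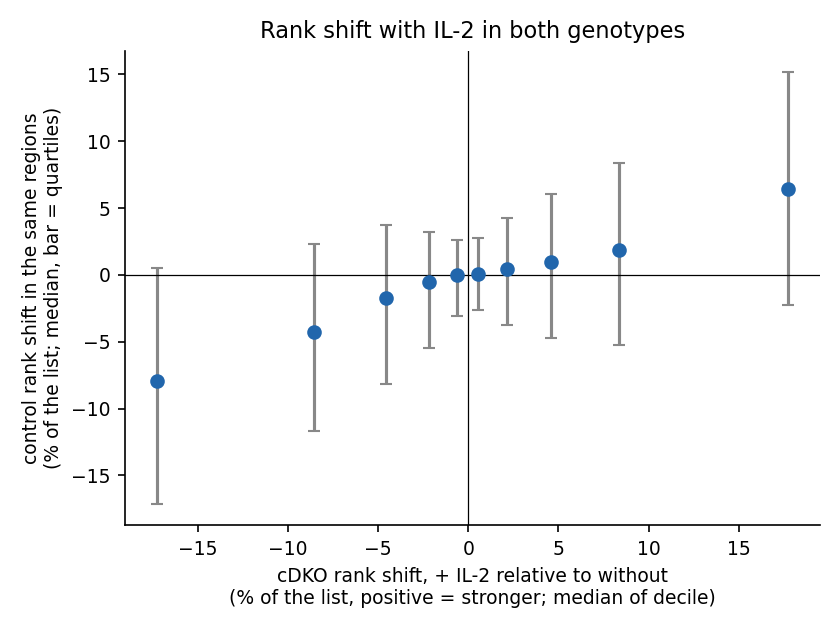
Median shift in rank with IL-2 in control cells (vertical axis, percent of the list, bars from lower to upper quartile) for 10 equal bins of the 40694 regions listed in all 8 libraries, placed by their median shift in cDKO cells (horizontal axis, percent of the list). Positive values mean nearer the top with IL-2; the control medians run from −7.97% to 6.42%, a smaller span than the −17.3% to 17.7% of cDKO cells that set the bins.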

How the data were processed

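The 8 ATAC-seq libraries were deposited as narrowPeak lists, 1 per library. For each peak the authors deposited a fold ratio over background, a −log10 p-value and a −log10 q-value, in columns without a header. Per the submitters' processing notes, which give no order or role, the build was GRCm38/mm10 and the tools included MACS2 2.2.7.1, Bowtie2 2.4.1, HOMER 4.11.1, SAMtools 1.3.1, ChIPseeker 1.18.0, Trimmomatic 0.39, DiffBind 2.10.0 and Picard. How reads were shifted, how duplicates were handled and how peaks were called is not stated there. Read depth is unknown, so precision cannot be given per region. The weakest kept peak had a −log10 p-value of 7.97 and 10.7 in cDKO libraries with IL-2, against 9.25 and 10.1 without, and of 3.25 in replicate 2 of control with IL-2.

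Each list was reduced to its 65811 peaks of highest −log10 p-value, and the peaks of the 8 deposited lists that overlapped by at least 1 bp were merged into regions. A region went to the protein-coding gene holding its midpoint, otherwise to the nearest within 100 kb. Exons, introns and UTRs were not analysed. The members and the 19 gene lists were chosen with earlier results of these data known. Of 349 list genes, 344 were in the gene table. Genes named were 9 set ones (Foxp3, Il2ra, Il2, Cish, Socs2, Bcl2, Myc, Tet1 and Tet3) and, in each direction, at most 15 regions that both kinds of list called, 4 genes per gene list, 8 genes with 3 or more calls one way and 8 regions by rank gap. Other genes named, among them further members of the gene lists, were chosen after their values were seen. RefSeq promoter windows (GRCm38.p6) were available for 27025 genes and were matched by symbol and position.

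Replicate numbers were not used to pair libraries: the correlation of the deviations of equally numbered libraries from their group means was 0.0217 in cDKO cells and 0.246 in control cells, and no label ties a number to an animal or day. The calling step was tested on simulated data. Alternatives were the list length, the overlap, ranking by fold, the set of lists merged, each library left out and a replicate block. Python 3.11.15, NumPy 2.4.6, pandas 2.3.3, SciPy 1.17.1 and matplotlib 3.10.9 were used. Some results are not reported here.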

Additional observations from a re-analysis of the deposited data

Results flagged for a closer look

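Some regions moved with IL-2 in opposite directions in the 2 genotypes, and none of these differences was tested. By presence, 24 regions higher with IL-2 in cDKO cells were lower in control cells (0.898%, against 2.84% of all regions listed there). Another 16 were lower in cDKO and higher in control cells (0.567%, against 2.71%). By rank, 32 regions were ranked higher in cDKO and ranked lower in control cells (1.43%, against 4.66% of regions in all 4 control lists). The reverse held for 23 (0.853%, against 4.49%). Each share of the regions called in cDKO cells was thus below that of all regions. Among the gene lists, 1 region 48.6 kb from Ctla4 (chr1:60859940-60860921) did so by rank. It ranked 34139 and 41795 in cDKO cells with IL-2, against 53982 and 51144 without, a gap of 14.2% of the list. In control cells it ranked 41360 and 42332 with IL-2, against 34760 and 31040 without, a gap of −10.0%.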

How the results depend on the processing

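Of 82 values recomputed for the main results, 37 stayed within the limits set for them. With 96752 peaks per list, 4250 regions were lower and the gene-end shares were 6.5% (higher) and 5.81% (lower). With full-length lists, 4059 regions were higher and 3553 lower, and 1.38% of higher and 10.9% of lower calls recurred in control cells. Both orders were thereby turned round, since with equal lists fewer regions were higher (2672) than lower (2820) and more of the higher calls recurred (12.5%) than of the lower (7.8%). With 32905 peaks per list, 1452 regions were higher, 1489 lower, 1184 ranked higher and 1389 ranked lower, the shares recurring in control were 15% and 10.3%, and the gene-end shares 11.4% and 6.51%. When a peak had to cover 50% of its region, 1295 were ranked higher and 1704 ranked lower, 9.94% and 9.02% recurred, and 6.56% of lower regions were at gene ends. Ranking by fold gave a recurring share of 10.6% for higher regions. The causes were not tested.

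Leaving out 1 cDKO library gave 4318 to 6614 regions higher, 4915 to 6475 lower, 4845 to 5517 ranked higher and 5188 to 6674 ranked lower. The recurring shares were then 7.85% to 9.83% for higher and 5.09% to 8.0% for lower calls, and the gene-end shares 6.99% to 9.47% and 4.96% to 6.2%. These counts are larger by construction, since the side with 1 library needs no second one. With a replicate block, 2672 and 2820 regions were called by presence, by construction the same, and 3186 were ranked higher and 3899 ranked lower.

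Of the regions higher, 1476 (55.2%) were called again when ranked by fold, 1745 (65.3%) at 50% cover, 653 (24.4%) with 96752 peaks per list and 529 (19.8%) at full length. For the lower regions these counts were 1401 (49.7%), 2162 (76.7%), 422 (15%) and 260 (9.22%). Which regions are called by presence therefore depends on list length. Of 112 gene list counts recomputed, 55 stayed within 1.5 times. Rank calls at unequal full lengths, and control shares with 96752 peaks or with only the cDKO lists merged, could not be computed, since 2 control lists are shorter or the control lists were not merged. The lack of read depth and of replicates beyond 2 limits every single region.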
